A study of Mus musculus with 16 samples.

Results

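The genes described here encode the machinery that licenses origins of DNA replication and runs the replication fork. They are 39 genes fixed by name, from the origin recognition complex and its loading factors to the replicative helicase, the polymerases, the sliding clamp and its loader, and the enzymes that finish lagging strand fragments and supply nucleotides. A gene was taken up where a probe set named it alone, and where several did, the brightest on average was used. Of the 39 genes, 38 had such a probe set and all 38 passed the filter on dim signal, among 18193 genes named this way and 10802 tested. The expression of the remaining gene, Chaf1a, was not analysed here, and it enters only the counts of promoters.

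The series followed P19CL6, an embryonal carcinoma line of the mouse. Its cells resemble those of the early embryo and can be turned into beating heart muscle by dimethyl sulfoxide (DMSO). The 16 arrays, 1 per culture, came from 3 cultures in normal growth without DMSO (0%), kept undifferentiated by frequent passage, and from cultures plated in medium with 1% DMSO and taken after 4 days (3 arrays), 6 days (2 arrays), 8 days (3 arrays), 10 days (3 arrays) and 12 days (2 arrays). The labels give all groups the same interval of passage or medium change. The labels name no other treatment, no genetic change and no DMSO-free cultures of matching age, so DMSO, time and the end of passaging cannot be told apart. All groups come from 1 cell line, and the labels call the cultures of a group independent. Values are deposited GCRMA signals, read as log2 from their range, and they are listed below in the order of replicates A, B and C (B and C on day 6, A and C on day 12). Probe sets differ in how strongly they bind, so levels are compared only within a gene. The number of arrays limits the precision of every value.

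DNA replication starts from origins that are licensed in G1, when the origin recognition complex, CDC6 and CDT1 load the ring-shaped MCM2-7 helicase onto DNA. In S phase the helicase is switched on by CDC45, the GINS complex and MCM10, polymerase alpha with primase lays the first primers, and polymerases delta and epsilon copy the strands on the PCNA clamp. Many of these genes are transcribed in bursts before S phase under E2F factors, and cells that leave the cycle, as heart muscle cells do, are known to lower them.

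The cultures carried the markers that their labels lead one to look for. Summed over 8 pluripotency markers on the linear scale, signal was 30970 to 39170 in growth and 6036 to 13190 on day 4. That signal was lowest on day 10, at 526.1 to 875, and was 934.6 to 1544 on day 12. Over 9 cardiomyocyte markers it was 70.22 to 100.7 in growth and 94810 to 96280 on day 12, when all 9 had means above the cutoff. In growth, 7 of the 8 pluripotency markers had means above the cutoff, the exception being Dppa5a, and of the cardiomyocyte markers Myl7 alone did, at a mean of 4.56. The sum of the 8 blood and endothelium markers was highest on day 10, between 9049 and 15140. The globins Hba-x and Hbb-bh1 were the brightest of them there (means of 11.75 and 12.86). By group means, Hba-x, Hbb-bh1, Hbb-y and Tek were highest on day 10, Kdr on day 4 (8.88) and Pecam1 on day 12 (4.12). Gata1 and Cdh5 stayed under the cutoff in every group mean (Cdh5 at most 3.987, on day 12). Endoderm markers reached 1458 to 1937 on day 12, with Sox17, Foxa2 and Alb under the cutoff there. Smooth muscle markers summed to 62.66 to 99.28 in growth and 13040 to 14860 on day 12, with Myh11 under the cutoff. Neural markers summed to 415.3 to 550.4 in growth and 144.9 to 158.3 on day 12, when only Tubb3 and Map2 had means above the cutoff. Markers of several cell types were thus present, and in bulk RNA fewer cells of a type and less RNA per cell cannot be told apart. The part of these markers in the results below was not tested.

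The day 8 array of replicate A was unlike the others of its group. Over all genes tested it correlated at 0.956 and 0.967 with day 8 replicates B and C and at 0.990 to 0.992 with the 2 day 6 arrays. The median difference of the 38 replication genes from the growth mean was -0.48 in replicate A, -1.07 in replicate B and -1.20 in replicate C, so results on day 8 are also given without replicate A. On day 12 the Affymetrix control probe sets for 18S rRNA averaged 8.37, against 5.24 in growth and 5.83 to 6.32 on the other days. The poly-A spike-in controls averaged 6.11 on day 12 and 4.72 to 4.91 in the other groups. The part of these control signals in the day 12 results was not tested.

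From day 8 on, a larger share of the replication genes than of all genes was called lower than in growth, and by day 12 their median difference was -1.81 log2. A gene was called lower or higher at an adjusted p under 0.05 in limma's fit over all 10802 genes and a difference of at least 1 log2. Of the 38 genes, 2 were called lower on day 4, 5 on day 6, 17 on day 8, 27 on day 10 and 30 on day 12. Over all genes tested, the percentage called lower was 13.6% on day 4, 12.9% on day 6, 15% on day 8, 19.5% on day 10 and 19.3% on day 12. The replication genes were thus under that background on day 4 (5.26%), near it on day 6 (13.2%) and above it on days 8, 10 and 12 (44.7%, 71.1% and 78.9%). Without day 8 replicate A, 26 of the 38 were called lower on day 8 (background 16.1%), and without day 8 replicate C, 11 were. Without growth replicate C, 4 were called lower on day 4. The reading of the early days depends on the size required. By the adjusted p alone, 16 of the 38 (42.1%) were lower on day 4 against 24.8% of all genes, and 18 (47.4%) on day 6 against 21.8%. Tested against a change of 1 log2 (limma's treat), 0 were lower on days 4 and 6 (5% and 4.35% of all genes), 1 on day 8 (5.67%) and 15 on day 10 (8.96%).

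None of the 38 was called higher than growth on any day (limma, 0 of 38). The background called higher was 13.3% on day 4, 14% on day 6, 16% on day 8, 18.5% on day 10 and 22.5% on day 12. By the adjusted p alone, 1 gene was higher on day 4 and 3 on day 6 (23.4% and 21.4% of all genes). On the later days 0 were, against 25.8% to 30.7% of all genes. Without growth replicate B, Tyms was called higher on days 4 and 6 (1.08 and 1.06), as it was on day 4 without day 4 replicate C (1.09) and on day 6 without day 6 replicate B (1.27).

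**Figure D1:**
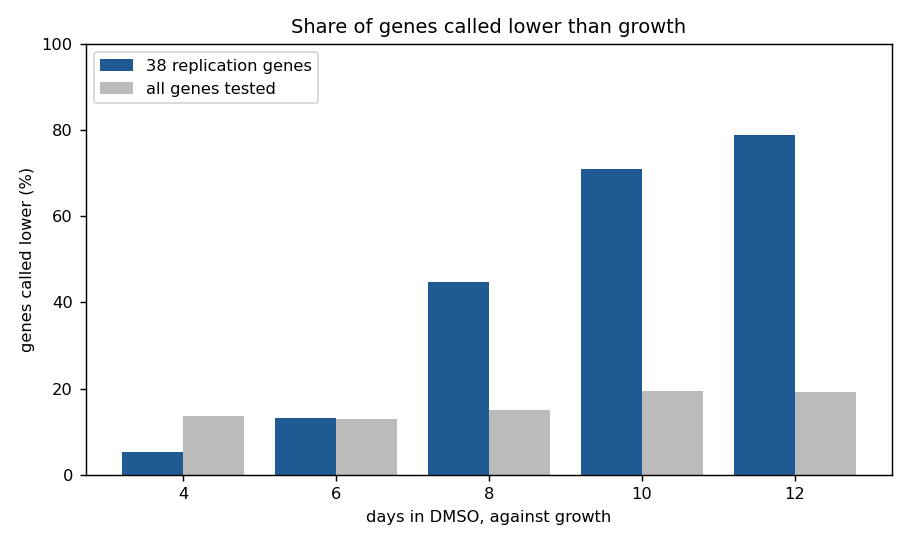
Percentage of genes called lower than growth (y axis) on each day in DMSO (x axis), for the 38 replication genes (blue bars) and for all 10802 genes tested (grey bars). The blue bar lies under the grey one on day 4 (5.26% against 13.6%) and far above it on day 12 (78.9% against 19.3%).

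The median difference of the 38 genes from growth was -0.45 log2 on day 4, -0.52 on day 6, -0.95 on day 8, -1.44 on day 10 and -1.81 on day 12. Over all genes tested the median stayed between -0.02 and 0.01 on these days. Without day 8 replicate A the day 8 median was -1.20. These 5 comparisons share the growth arrays. On day 12 all 38 differences were below 0, and they ran from -3.18 in Mcm10 to -0.23 in Tyms. Over growth and the 5 days together, the moderated F test called 35 of the 38 genes, with a background of 60.9%. The 3 genes it did not call were Rfc1, Orc6 and Rfc4, whose group means spanned 0.71, 0.86 and 0.95 log2.

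**Figure D2:**
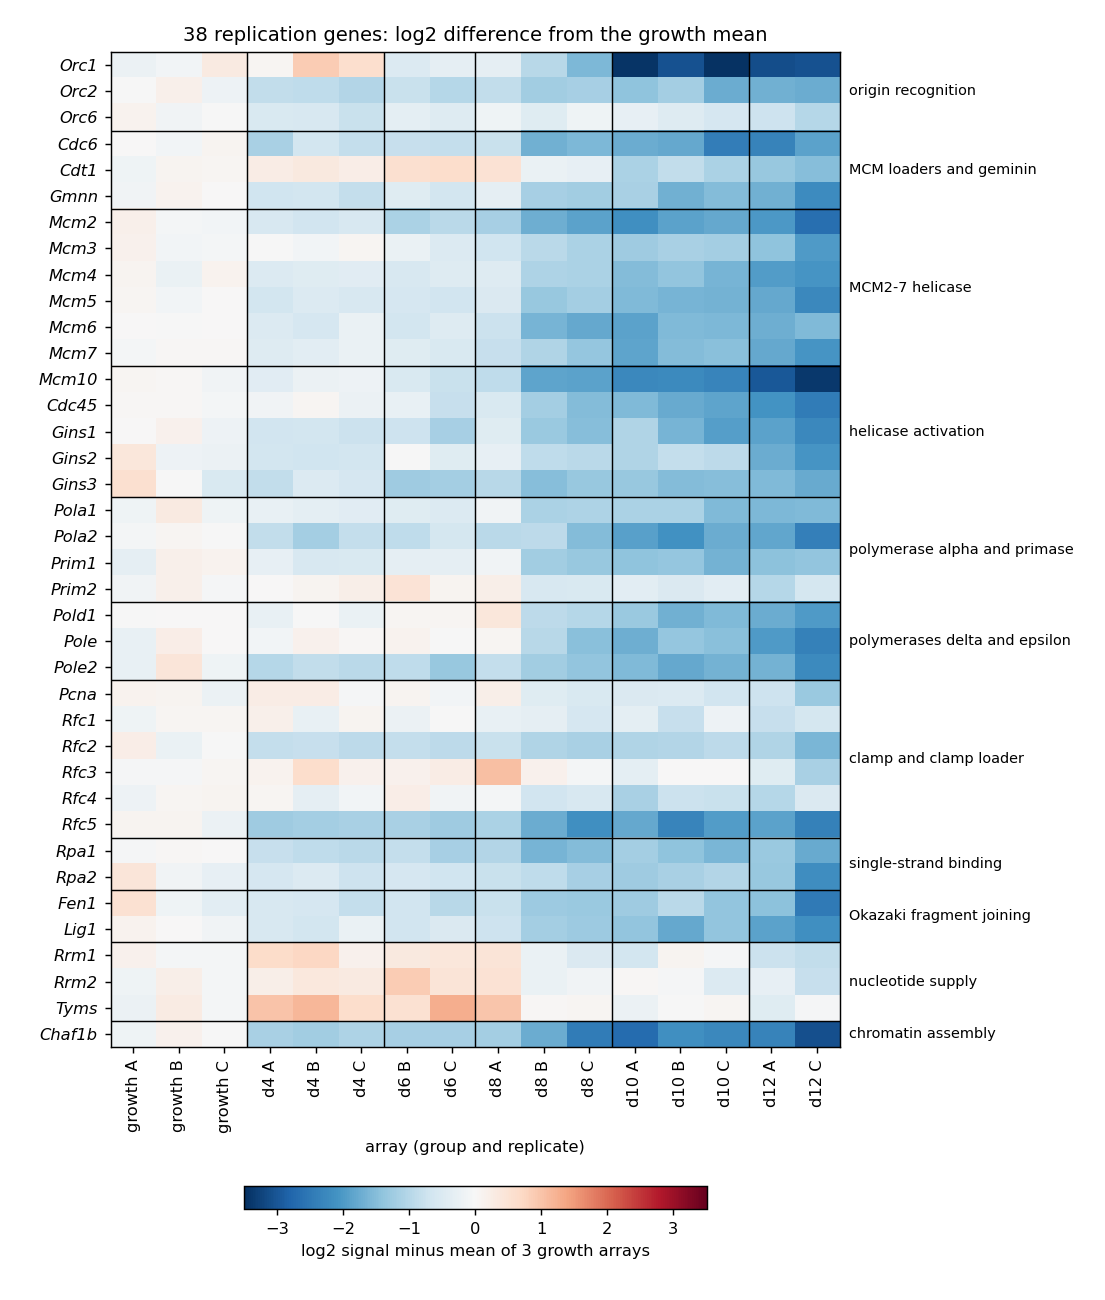
Log2 signal minus the mean of the 3 growth arrays (colour scale, blue lower and red higher) for the 38 replication genes (rows, grouped by role) on the 16 arrays (columns, by group and replicate). Blue deepens from day 8 to day 12 in most genes, day 8 replicate A looks like day 6, and the nucleotide genes Rrm1, Rrm2 and Tyms are pale red on days 4 and 6.

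Among the genes that mark origins, Orc1 fell into the dim range and its fall came late. Orc1, the large ATPase subunit of the origin recognition complex, read 6.70, 6.82 and 7.23 in growth, 6.97, 7.80 and 7.51 on day 4, and 6.45 and 6.61 on day 6. Its probe set then read 6.61, 5.95 and 5.33 on day 8, 3.48, 3.87 and 3.46 on day 10, and 3.81 and 3.88 on day 12. The day 4 arrays overlapped growth, the day 8 arrays all lay below growth, and the 5 arrays of days 10 and 12 lay under the dim cutoff of 4. Because both groups were dim, the fold is a lower bound computed against the cutoff: Orc1 was at least 7.54-fold lower than growth on days 10 and 12 (limma, adjusted p = 4.79e-07 and 2.66e-06). On day 8 the difference was -0.95 (adjusted p = 0.0129) and was not called, while without day 8 replicate A it was -1.27 and called, as it was without growth replicate A (-1.06).

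Orc2, a core subunit of the same complex, moved early. Its mean log2 signal was 9.23 ± 0.18 (SD, n = 3) in growth, 8.30 ± 0.08 (n = 3) on day 4, 8.15 ± 0.20 (n = 3) on day 8 and 7.52 ± 0.04 (n = 2) on day 12. The day 4 difference of -0.92 (adjusted p = 0.000434) fell short of 1 log2, though without growth replicate C it was -1.01 and called. The other probe sets of Orc2 gave -1.47 and -1.87 on day 4, and the mean of all its probe sets was called on day 4 (-1.42) and on day 6 (-1.34). Orc2 was called lower on day 8 (-1.08; -0.99 and not called without growth replicate B), on day 10 (-1.44) and on day 12 (-1.71, 3.28-fold). Orc6, a small subunit that joins the complex less tightly, read 10.32, 10.07 and 10.19 in growth, 9.66, 9.64 and 9.42 on day 4, and 9.85 and 9.73 on day 6. On the later arrays Orc6 read 10.04, 9.78 and 10.05 on day 8, 9.90, 9.75 and 9.60 on day 10, and 9.47 and 9.20 on day 12. Every DMSO array lay below the lowest growth array, but the day 12 difference was only -0.86 (SE 0.16, adjusted p = 0.000467), so Orc6 was not called on any day.

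Of the genes for helicase loading, Cdc6 was lower and Cdt1 was not on the early days. Cdc6, the ATPase that works with the origin complex to load MCM2-7, read 9.82, 9.71 and 9.92 in growth, 8.69, 9.17 and 8.99 on day 4, and 9.02 and 8.99 on day 6. It went on to read 9.03, 8.14 and 8.25 on day 8, 8.09, 8.02 and 7.39 on day 10, and 7.48 and 7.93 on day 12. All DMSO arrays lay below growth, and Cdc6 was called lower on day 8 (-1.35), on day 10 (-1.99) and on day 12 (-2.11, SE 0.28, adjusted p = 1.96e-05), the last a 4.32-fold difference.

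Cdt1, the partner that brings the MCM ring to origins, came down only after day 6. It read 11.09, 11.34 and 11.31 in growth, 11.52, 11.60 and 11.47 on day 4, and 11.82 and 11.86 on day 6. Later Cdt1 arrays read 11.76, 11.03 and 10.95 on day 8, 10.15, 10.39 and 10.13 on day 10, and 9.93 and 9.76 on day 12. The arrays of days 4 and 6 and day 8 replicate A were all above growth, day 8 replicates B and C were below it, and days 10 and 12 were lower still. The day 6 difference was 0.59 (SE 0.21, adjusted p = 0.038), under the size needed for a call. Cdt1 was called lower on day 12 (-1.40, adjusted p = 6.92e-05). On day 10 it was called at -1.02, at the edge of the threshold, and leaving out growth replicate B (-0.97), growth replicate C (-0.99), day 10 replicate A (-0.99) or day 10 replicate C (-0.98), or quantile normalization again (-0.996), ended the call.

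Gmnn encodes geminin, the inhibitor that binds CDT1 and blocks repeated loading. Its mean was 10.86 ± 0.13 in growth, 10.14 ± 0.10 on day 4 and 8.92 ± 0.36 on day 12 (SD, n = 3, 3 and 2). Geminin RNA was called lower on day 10 (-1.44) and day 12 (-1.95, adjusted p = 2.46e-05), and without day 8 replicate A also on day 8 (-1.19).

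All 6 subunits of the MCM2-7 ring, the helicase that unwinds DNA at the fork, were called lower on days 10 and 12. Of all genes, 19.5% and 19.3% were called lower on these days. The number called was 0 on day 4, 1 on day 6 and 4 on day 8, against 13.6%, 12.9% and 15% of all genes. The share on day 6 (16.7%) was near that of all genes. Their median difference went from -0.43 on day 4 to -1.04 on day 8 and -1.97 on day 12. Mcm2 fell first. It read 10.54, 10.31 and 10.27 in growth, 9.82, 9.70 and 9.82 on day 4, and 9.27 and 9.44 on day 6. On days 8 to 12 Mcm2 read 9.22, 8.68 and 8.51 on day 8, 8.21, 8.49 and 8.57 on day 10, and 8.36 and 7.72 on day 12. The groups stepped down without overlap from growth to day 4, to day 6 and to day 8. Mcm2 was called on day 6 (-1.02, adjusted p = 0.00266), a call lost without growth replicate A (-0.93) or day 6 replicate B (-0.94), with array weights (-0.96), with the replicate block (-0.94) and by the mean of its probe sets (-0.96), and it was 5.04-fold lower on day 12 (-2.33, SE 0.23, adjusted p = 1.52e-06).

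Mcm5 had the brightest probe set of the ring and read 13.02, 12.85 and 12.97 in growth, 12.30, 12.45 and 12.38 on day 4, and 12.36 and 12.26 on day 6. Its later arrays read 12.45, 11.63 and 11.74 on day 8, 11.39, 11.32 and 11.28 on day 10, and 11.16 and 10.69 on day 12. On day 4 Mcm5 differed by -0.56 and Mcm2 by -0.59, and another bright probe set of Mcm5 gave -0.94. With probe sets ending in _x_at or _s_at left out, Mcm5 was called on day 6 (-1.11). Day 8 replicate A lay at the day 4 level, and replicates B and C lay below all arrays of days 4 and 6. The difference was -1.002 on day 8 (called, but not without growth replicate A, -0.97, or C, -0.99, or day 8 replicate B, -0.85, or C, -0.90; -1.26 without day 8 replicate A), -1.61 on day 10 and -2.02 on day 12. Mcm3, Mcm4, Mcm6 and Mcm7 were lower on day 12 by 3.25, 4.04, 3.09 and 3.79 times. Mcm3 was level with growth on day 4 (-0.01, adjusted p = 0.97), whereas Mcm6 had come close to its day 12 level by day 10 (-1.66 and -1.63). The other probe sets of Mcm3 above the filter gave -0.20, -0.36 and -0.16 on day 4. Mcm3 and Mcm4 were not called on day 8, but both were without day 8 replicate A (-1.02 and -1.09). Mcm3 was also called there by the mean of its probe sets (-1.14) and with probe sets ending in _x_at or _s_at left out (-1.19), and Mcm4 with array weights (-1.03). Mcm5 was no longer called there after quantile normalization again (-0.997), and Mcm7 was not called there without day 8 replicate C (-0.93).

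The promoters of the replication genes were searched for words bound by factors known to act on S phase genes. The windows, from RefSeq's table for assembly GRCm38.p6, run from 250 bases before a start to 50 after it and cover 32 of the 39 genes with 37 starts. The E2F words TTTCCCGC and TTTGGCGC, read on either strand, occurred in 11 of the 32 genes (34.4%), and in 1.8% of the 27025 genes in the table. The NF-Y word CCAAT, on either strand, occurred in 21 of 32 genes (65.6%) and in 41.1% of all genes. In the 100 bases before the start alone, the E2F words were in 2 genes (6.25%, and 0.681% of all genes) and CCAAT in 17 (53.1%, and 21.6% of all genes). The share for E2F thus rests largely on matches further from the start or just after it. Such a match is letters in a window and shows no binding.

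The 180 bases before the start are printed for Mcm5, Mcm6 and Mcm7, because each holds an E2F word together with CCAAT words. They are written 5′ to 3′ on the gene's strand, and capitals mark the words on either strand (GCGCCAAA and GCGGGAAA are the E2F words read on the other strand, ATTGG is CCAAT). Mcm5 lies at chr8:75109329-75109508 on the plus strand, Mcm6 at chr1:128359706-128359885 on the minus strand and Mcm7 at chr5:138171884-138172063 on the minus strand.
Mcm5: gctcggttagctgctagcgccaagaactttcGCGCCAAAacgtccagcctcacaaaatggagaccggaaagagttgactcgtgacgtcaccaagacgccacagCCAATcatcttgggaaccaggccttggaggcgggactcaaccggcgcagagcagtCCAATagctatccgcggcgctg
Mcm6: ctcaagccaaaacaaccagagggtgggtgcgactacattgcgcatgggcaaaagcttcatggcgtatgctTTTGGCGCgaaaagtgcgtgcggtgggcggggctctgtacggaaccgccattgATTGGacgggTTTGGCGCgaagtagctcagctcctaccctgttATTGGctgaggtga
Mcm7: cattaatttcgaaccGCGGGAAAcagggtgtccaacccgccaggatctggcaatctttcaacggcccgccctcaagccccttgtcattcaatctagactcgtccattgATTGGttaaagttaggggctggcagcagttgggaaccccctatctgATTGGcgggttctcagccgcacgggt
Mcm6 holds the word TTTGGCGC 2 times, at positions -110 and -47 from the start base, and each of the 3 windows holds 2 CCAAT words.

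Shorter windows around the E2F words are shown for other genes of the set that fell at different times, so that early and late genes can be read side by side. Pole2 (chr12:69228163-69228190, minus strand) and Gins3 (chr8:95633508-95633535, plus strand) were called by day 6, Cdc6 (chr11:98908003-98908030, plus strand) by day 8, and Pold1 (chr7:44548766-44548786, minus strand) and Cdt1 (chr8:122568037-122568064, plus strand) by day 10. With its other probe set, Pold1 was called on day 8 (-1.35). Capitals again mark the E2F word.
Pole2: gtcggcggtgGCGCCAAAtcgcgaacat
Gins3: cgagtgcggcGCGGGAAAgcgagtttga
Cdc6: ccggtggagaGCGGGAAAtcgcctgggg
Pold1: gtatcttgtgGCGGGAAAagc
Cdt1: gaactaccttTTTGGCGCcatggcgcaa
Orc1, Mcm10, Cdc45 and Chaf1b, which are among the genes that fell the most, held neither E2F word in the windows searched, which says only that these letters are not there.

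Among the factors that switch the loaded helicase on, Mcm10 fell the most. Mcm10, which binds the helicase and helps it to move off the origin, read 9.37, 9.32 and 9.17 in growth, 8.88, 9.08 and 9.11 on day 4, and 8.76 and 8.51 on day 6. Its later arrays read 8.40, 7.46 and 7.41 on day 8, 7.03, 7.05 and 6.97 on day 10, and 6.31 and 5.92 on day 12. Each group lay wholly below the one before it, from growth to day 12. Mcm10 was 9.04-fold lower on day 12 (-3.18, SE 0.25, adjusted p = 2.18e-07). On day 4 its difference was -0.27 (adjusted p = 0.357), and it was first called on day 8 (-1.53; -1.86 without day 8 replicate A).

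Cdc45, the subunit that joins MCM2-7 and GINS into the active helicase, read 8.35, 8.35 and 8.24 in growth, 8.19, 8.37 and 8.12 on day 4, and 8.05 and 7.52 on day 6. Thereafter Cdc45 read 7.79, 7.12 and 6.80 on day 8, 6.77, 6.54 and 6.47 on day 10, and 6.22 and 5.85 on day 12. Day 4 overlapped growth (-0.09, adjusted p = 0.802), and every later group lay below growth. The day 12 difference was -2.28 (SE 0.25, adjusted p = 4.58e-06), and the day 8 call (-1.08) was lost without day 8 replicate C (-0.86).

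The 3 GINS subunits measured, which hold CDC45 on the ring, were all called lower on day 12 (19.3% of all genes were). Gins1 had the brightest probe set and read 9.34, 9.47 and 9.16 in growth, 8.66, 8.69 and 8.57 on day 4, and 8.60 and 8.15 on day 6. It later read 8.88, 8.01 and 7.84 on day 8, 8.26, 7.70 and 7.39 on day 10, and 7.45 and 7.07 on day 12. All DMSO arrays of Gins1 were below growth, and day 8 replicate A lay above the day 4 arrays. The Gins1 difference was -1.54 on day 10 and -2.06 on day 12 (4.18-fold, adjusted p = 5.17e-05). Its day 8 call (-1.08) was lost without day 8 replicate B (-0.96) or C (-0.87), as it was by the mean of its probe sets (-0.87). On day 6 it was called without growth replicate C (-1.03) or day 6 replicate B (-1.17) and under median scaling (-1.03). Gins3 was called lower from day 6 on (-1.23 on day 6 and -1.66 on day 12), although its growth arrays spread widely (6.19 to 7.30) and the calls on days 6 and 8 were lost without growth replicate A (-0.94 and -0.98). Gins2 was called on day 12 (-1.90), was -0.93 and not called on day 10, and was called there without growth replicate B (-1.01) or C (-1.04).

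**Figure D3:**
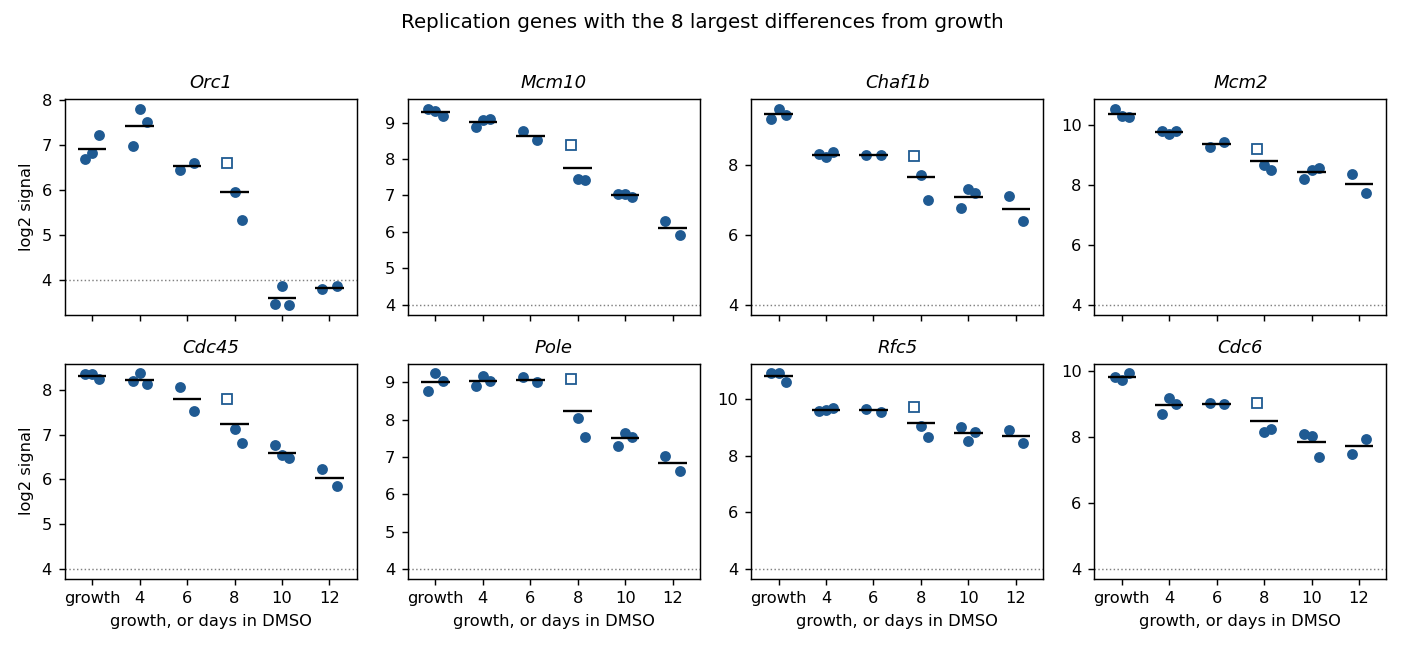
Log2 signal (y axis) of the replication genes with the 8 largest called differences from growth, by group (x axis, growth or days in DMSO), with 1 point per array, a bar at each group mean, an open square for day 8 replicate A and a dotted line at the dim cutoff of 4. Mcm10 steps down in every group, Orc1 drops under the cutoff by day 10, Rfc5 and Chaf1b are already lower on day 4, and Pole is at the growth level until day 8 replicate A.

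The genes for primer synthesis differed in size of fall. The catalytic subunit Pola1 and the accessory subunit Pola2 of polymerase alpha were 2.94 and 4.29 times lower on day 12. Pola2 was already at -0.97 on day 4 (adjusted p = 0.00146), not called, and it was called there without day 4 replicate A (-1.01) or C (-1.03). Its call on day 8 (-1.12) was lost without day 8 replicate C (-0.92). Prim1, the subunit of primase that makes the RNA primer, read 10.13, 10.63 and 10.56 in growth, 10.16, 9.89 and 9.90 on day 4, and 10.13 and 10.13 on day 6. Prim1 then read 10.32, 9.23 and 9.12 on day 8, 9.03, 9.10 and 8.79 on day 10, and 9.01 and 9.07 on day 12. Day 8 replicate A lay within the growth range while replicates B and C lay below all earlier arrays. Prim1 was called lower on day 10 (-1.47) and day 12 (-1.40, adjusted p = 0.000865), and was called on day 8 without day 8 replicate A (-1.27), without growth replicate A (-1.04) or with array weights (-1.25).

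Prim2, the large regulatory subunit of primase, had the smallest span among the genes called by the F test, 1.10 log2 (adjusted p = 0.00735). It read 8.17, 8.46 and 8.24 in growth, 8.29, 8.39 and 8.49 on day 4, and 8.78 and 8.40 on day 6. On later days Prim2 read 8.49, 7.72 and 7.75 on day 8, 7.91, 7.79 and 7.92 on day 10, and 7.30 and 7.67 on day 12. The arrays of days 4 and 6 overlapped growth, and both day 12 arrays lay below it. On day 12 Prim2 differed by -0.80 (SE 0.23, adjusted p = 0.00714), which is under the size for a call.

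By the probe sets used, the catalytic subunits of the 2 fork polymerases were near the growth level on days 4 and 6. Pole, the catalytic subunit of polymerase epsilon on the leading strand, read 8.76, 9.24 and 9.03 in growth, 8.91, 9.17 and 9.04 on day 4, and 9.14 and 9.01 on day 6. Its arrays afterwards read 9.09, 8.04 and 7.55 on day 8, 7.30, 7.66 and 7.55 on day 10, and 7.03 and 6.64 on day 12. The arrays of days 4 and 6 and day 8 replicate A all fell within the growth range, and the other arrays all fell below it. The difference was 0.03 on day 4 (SE 0.30, adjusted p = 0.969), -1.51 on day 10 and -2.18 on day 12 (SE 0.33, adjusted p = 6.85e-05). Without day 8 replicate A it was called on day 8 at -1.22.

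Pold1, the catalytic subunit of polymerase delta on the lagging strand, read 9.52, 9.55 and 9.56 in growth, 9.29, 9.54 and 9.32 on day 4, and 9.61 and 9.62 on day 6. It then read 9.95, 8.62 and 8.54 on day 8, 8.24, 7.86 and 8.01 on day 10, and 7.82 and 7.55 on day 12. Both day 6 arrays and day 8 replicate A were above every growth array, and day 8 replicates B and C were below. The other probe set averaged 8.918 in growth, 8.429 on day 4 and 8.625 on day 6, so the early direction of Pold1 depends on the probe set. Pold1 was called lower on day 10 (-1.504) and on day 12 (-1.86, 3.63-fold, adjusted p = 0.000188). Pole2, the second subunit of polymerase epsilon, was low earlier, at -0.93 on day 4 (adjusted p = 0.00298), -1.12 on day 6 and -1.95 on day 12. Its day 6 call was lost without growth replicate B (-0.91) or day 6 replicate C (-0.90), its day 8 call (-1.14) was lost without growth replicate B (-0.93), and on day 4 it was called without growth replicate A (-1.06) or C (-1.01). The difference between Pole and Pole2 in timing was not tested.

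Of the 6 genes for the sliding clamp and its loader, 1 was called lower on days 4, 6, 8 and 10 each (16.7%, near the 12.9% to 19.5% of all genes on those days), and 3 on day 12 (against 19.3% of all genes). Pcna, the clamp that holds polymerases on DNA, read 13.53, 13.52 and 13.19 in growth, 13.68, 13.68 and 13.38 on day 4, and 13.52 and 13.32 on day 6. On later days Pcna read 13.62, 12.98 and 12.87 on day 8, 12.91, 12.94 and 12.75 on day 10, and 12.68 and 12.10 on day 12. Its day 4 and day 6 arrays overlapped growth, day 8 replicate A was above all growth arrays, and the arrays of days 10 and 12 were below them. Pcna reached -0.55 on day 10 (adjusted p = 0.0376) and was called on day 12 at -1.02 (SE 0.24, adjusted p = 0.00192). That call was at the edge of the threshold, and it was lost without growth replicate A (-0.96) or B (-0.97) or day 12 replicate C (-0.73), or with array weights (-0.97).

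Rfc5, a small subunit of the clamp loader, was 1 of the 2 genes called on day 4. It read 10.91, 10.91 and 10.60 in growth, 9.56, 9.61 and 9.67 on day 4, and 9.66 and 9.56 on day 6. After day 6 Rfc5 read 9.71, 9.06 and 8.66 on day 8, 9.02, 8.51 and 8.84 on day 10, and 8.93 and 8.44 on day 12. Every DMSO array lay below growth, with the arrays of days 4 and 6 close together. The difference was -1.19 on day 4 (SE 0.24, adjusted p = 0.000922), -1.20 on day 6, -2.02 on day 10 and -2.12 on day 12 (4.36-fold). Rfc2, another small subunit, was also low early, at -0.85 on day 4 (adjusted p = 0.00106) and -1.33 on day 12. It was called on day 12, and on days 8 and 10, where it was -0.99 each time and not called, it was called without growth replicate B (-1.11 both times), day 8 replicate A (-1.10) or day 10 replicate C (-1.03), and under median scaling (-1.07 and -1.005).

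The other 3 loader genes were called lower on no day. Rfc1, the large subunit, read 9.36, 9.58 and 9.57 in growth, 9.68, 9.24 and 9.60 on day 4, and 9.30 and 9.48 on day 6. Its later arrays read 9.24, 9.19 and 8.91 on day 8, 9.15, 8.71 and 9.32 on day 10, and 8.69 and 8.90 on day 12. The arrays of days 4 and 6 overlapped growth and those of later days lay just below it. Rfc1 differed by -0.71 on day 12 (SE 0.20, adjusted p = 0.00819). Rfc4 read 10.01, 10.25 and 10.28 in growth, 10.25, 9.86 and 10.07 on day 4, and 10.41 and 10.07 on day 6. Later arrays of Rfc4 read 10.12, 9.52 and 9.62 on day 8, 9.06, 9.43 and 9.39 on day 10, and 9.19 and 9.66 on day 12. Only the arrays of days 10 and 12 lay wholly below growth, and the day 12 difference was -0.76 (adjusted p = 0.00982). Rfc3 was above growth on days 4 and 6 (0.29 and 0.20, adjusted p = 0.407 and 0.632) and at -0.79 on day 12, not called, but called without day 12 replicate A (-1.15).

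RNA for the proteins that coat single strands and for those that finish lagging strand fragments fell over several days. Rpa1, the large DNA-binding subunit of replication protein A, read 10.78, 10.89 and 10.84 in growth, 10.04, 9.93 and 9.89 on day 4, and 10.01 and 9.67 on day 6. Afterwards Rpa1 read 9.80, 9.20 and 9.32 on day 8, 9.65, 9.44 and 9.23 on day 10, and 9.54 and 9.07 on day 12. All DMSO arrays were below growth, and days 8, 10 and 12 overlapped one another. Rpa1 differed by -0.88 on day 4 (adjusted p = 0.00157), -1.40 on day 8 and -1.53 on day 12 (2.89-fold), and on day 6 (-0.99) it was not called. It was called there without growth replicate A (-1.02) or day 6 replicate B (-1.16), under median scaling (-1.08), with array weights (-1.01) and by the mean of its probe sets (-1.09). Rpa2, the middle subunit, was called on day 10 (-1.13; not called at -0.92 without growth replicate A or at -0.97 with array weights) and on day 12 (-1.75).

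Fen1, the flap nuclease that trims the ends of Okazaki fragments, read 11.39, 10.72 and 10.49 in growth, 10.31, 10.27 and 10.04 on day 4, and 10.20 and 9.88 on day 6. Later it read 10.08, 9.60 and 9.56 on day 8, 9.63, 9.92 and 9.48 on day 10, and 9.42 and 8.40 on day 12. All DMSO arrays were below growth, growth replicate A was well above the other growth arrays, and day 12 replicate C was well below replicate A. Fen1 was called on day 8 (-1.12), day 10 (-1.19) and day 12 (-1.95, SE 0.31, adjusted p = 1.00e-04), and the first 2 calls were lost without growth replicate A (-0.85 and -0.92). Lig1, the ligase that seals the fragments, was 4.01-fold lower on day 12 (-2.003, adjusted p = 2.31e-06). Its call on day 8 (-1.06) was lost without day 8 replicate B (-0.998) or C (-0.96).

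Of the genes that supply nucleotides, 0 of 3 were called lower than growth on any day in limma's fit. Of all genes, 12.9% to 19.5% were called lower per day, and 3 genes are too few to set against that share. Rrm1 and Rrm2 encode the subunits of ribonucleotide reductase, which makes deoxynucleotides, and Tyms encodes thymidylate synthase. Rrm2 read 11.08, 11.44 and 11.14 in growth, 11.44, 11.60 and 11.54 on day 4, and 12.12 and 11.68 on day 6. On days 8 to 12 Rrm2 read 11.72, 11.002 and 11.09 on day 8, 11.27, 11.18 and 10.74 on day 10, and 10.94 and 10.41 on day 12. Both day 6 arrays were above all growth arrays and both day 12 arrays were below them. The difference was 0.67 on day 6 (SE 0.25, adjusted p = 0.0433) and -0.55 on day 12 (adjusted p = 0.0744). The other probe sets of Rrm2 gave -1.13 and -0.45 on day 12, so the size of its fall depends on the probe set. Rrm1 was 0.50 above growth on day 4 (adjusted p = 0.121) and differed by -0.80 on day 12 (adjusted p = 0.024). By the adjusted p alone, 36 of the 38 genes were lower on day 12 (30.1% of all genes), with Rrm1 among them and Rrm2 not.

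Tyms was the other gene of the 38 that was not lower on day 12 by the adjusted p alone. It read 4.02, 4.54 and 4.16 in growth, 5.24, 5.41 and 4.86 on day 4, and 4.78 and 5.51 on day 6. Later Tyms arrays read 5.21, 4.27 and 4.32 on day 8, 4.03, 4.23 and 4.30 on day 10, and 3.81 and 4.19 on day 12. The arrays of days 4 and 6 and day 8 replicate A were above growth, and the others overlapped it or lay just below. The difference was 0.93 on day 4 (SE 0.27, adjusted p = 0.0109), 0.91 on day 6 (adjusted p = 0.026) and -0.23 on day 12 (adjusted p = 0.526). The probe set is close to the dim cutoff, above it on 15 of 16 arrays. The other probe set of Tyms that passed the filter differed by -0.93 on day 4. It was above the cutoff on 2 arrays, with a mean above it in growth alone. The filter thus largely fixed its direction, and it cannot decide the direction of Tyms on day 4.

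**Figure D4:**
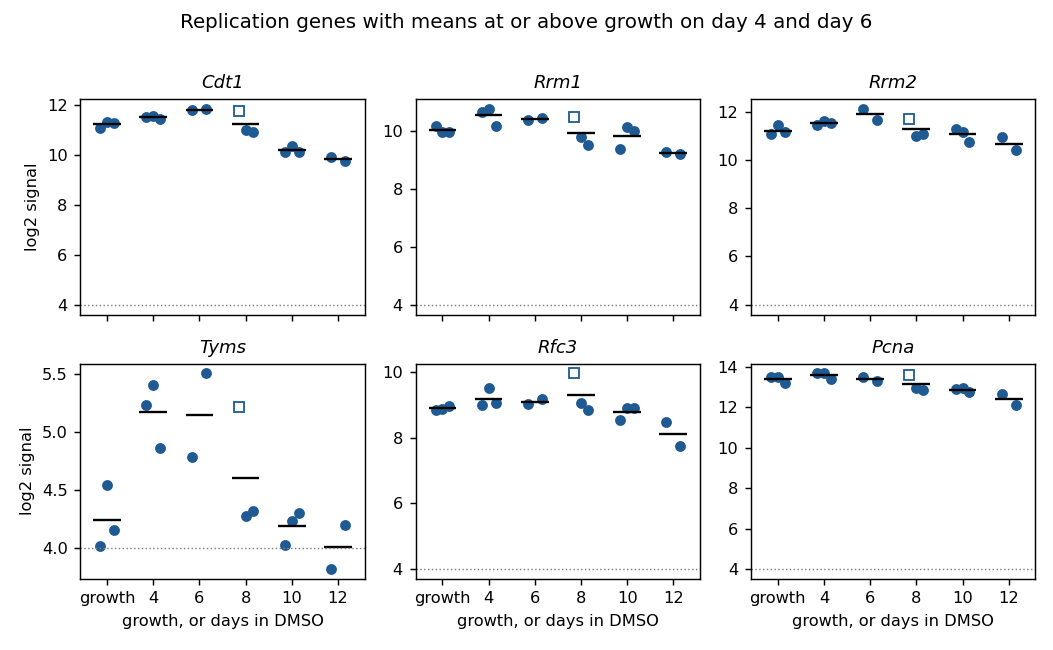
Log2 signal (y axis) by group (x axis, growth or days in DMSO) of 6 replication genes whose means were at or above growth on days 4 and 6, with 1 point per array, a bar at each group mean, an open square for day 8 replicate A and a dotted line at the dim cutoff of 4. Cdt1, Rrm1, Rrm2 and Rfc3 sit above growth early and below it on day 12, Pcna declines from day 8, and Tyms stays near the cutoff on an axis of its own scale. Pole and Prim2 also had means above growth on days 4 and 6 and are not shown here.

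Chaf1b, the middle subunit of the factor that places new histones behind the fork, was the third gene in size of fall and one of the earliest. It read 9.31, 9.61 and 9.44 in growth, 8.31, 8.23 and 8.37 on day 4, and 8.30 and 8.29 on day 6. From day 8 on Chaf1b read 8.26, 7.72 and 7.004 on day 8, 6.77, 7.31 and 7.19 on day 10, and 7.11 and 6.39 on day 12. All DMSO arrays lay below growth, days 4 and 6 coincided, and day 8 replicate A stayed with them. The difference was -1.15 on day 4 (SE 0.27, adjusted p = 0.00311), -1.16 on day 6, -1.80 on day 8, -2.37 on day 10 and -2.71 on day 12 (6.54-fold, adjusted p = 4.90e-06).

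Step by step between sampling days, few of the changes were large enough to be called. From day 4 to day 6, 0 of 38 genes were called lower and 0 higher (limma; 2 were lower at an unadjusted p under 0.05, Orc1 and Gins3), with backgrounds of 2.61% lower and 3.52% higher. The median of the 38 was -0.07. For counts at an unadjusted p, here and in the later steps, the share of all genes was not computed. From day 6 to day 8, 0 were called either way, with backgrounds of 0.0185% lower and 0% higher, while 12 were lower at an unadjusted p under 0.05 and the median was -0.47. Without day 8 replicate A, 4 were called lower there (background 1.93%, median -0.67): Mcm6 (-1.16), Mcm10 (-1.20), Pold1 (-1.04) and Pole (-1.28).

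From day 8 to day 10, Orc1 and Cdt1 were called lower and 0 genes higher, with backgrounds of 3.19% and 4.62% and a median of -0.46. Orc1 dropped from a mean of 5.96 ± 0.64 (SD, n = 3) to 3.60 ± 0.23 (n = 3), at least 3.90-fold lower because day 10 was dim (adjusted p = 0.00015). Cdt1 dropped by 1.02 on the log2 scale (adjusted p = 0.00341), a call lost without day 8 replicate A (-0.76) or day 10 replicate A (-0.98) or C (-0.97), under median scaling (-0.96), with array weights (-0.81), after quantile normalization again and when only the groups compared were fitted. Without day 8 replicate A, Orc1 alone was called (-2.04, background 2.31%) and the median was -0.17. Pold1 was called in this step without day 8 replicate B (-1.21) or C (-1.24), and Pole without day 8 replicate C (-1.06). From day 10 to day 12, 0 were called either way (10 were lower and 0 higher at an unadjusted p under 0.05), with backgrounds of 0.185% lower and 2.88% higher and a median of -0.38. By the adjusted p alone 1 was lower (0.454% of all genes). The largest step was in Gins2, -0.97 (adjusted p = 0.0355), followed by Mcm10, -0.90 (adjusted p = 0.0655).

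Between day 4 and day 12, a comparison that leaves growth aside, 28 of the 38 genes were called lower and 0 higher, with backgrounds of 13.2% and 19%. The median of the 38 was -1.22 and that of all genes was -0.02. By the adjusted p alone, 36 were lower (25% of all genes) and 0 higher (26.7%), and tested against 1 log2, 9 were lower (3.67% of all genes). Orc1 fell the most, at least 10.8-fold, followed by Mcm10 at 7.51-fold (-2.91), Pole at 4.61-fold (-2.21) and Cdc45 at 4.56-fold (-2.19). Cdt1 (-1.68), Pold1 (-1.70), Pcna (-1.19), Rrm1 (-1.30), Rfc3 (-1.08) and Tyms (-1.17) were also called lower, and they are named for their day 4 levels near or above growth, so these sizes are a description. The call of Tyms was lost without day 12 replicate A (-0.98) and by the mean of its probe sets (-0.69), by which the calls of Gins1 (-0.98) and Mcm6 (-0.95) were lost too.

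The 10 genes not called between day 4 and day 12 included some that were already low on day 4. Rfc5 (-0.93, adjusted p = 0.00926), Rpa1 (-0.65, adjusted p = 0.0185), Rfc2 (-0.48, adjusted p = 0.0511) and Orc2 (-0.79, adjusted p = 0.00301) belong there, along with Prim1, Prim2, Rfc1, Rfc4, Rrm2 and Orc6. Orc6 differed least, at -0.24 (adjusted p = 0.246). Without day 12 replicate C, 21 of the 38 were called, which included Prim2 (-1.09), and Fen1 (-0.79), Gins3 (-0.91), Gmnn (-0.97), Pcna (-0.90), Pola2 (-0.84), Pole2 (-0.74), Rfc3 (-0.72) and Rpa2 (-0.75) were not. Leaving out single day 4 arrays took away the calls of Gins3 (-0.93 without replicate B and -0.99 without C), Pole2 (-0.98 without B) and Rfc3 (-0.92 without B).

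**Figure D5:**
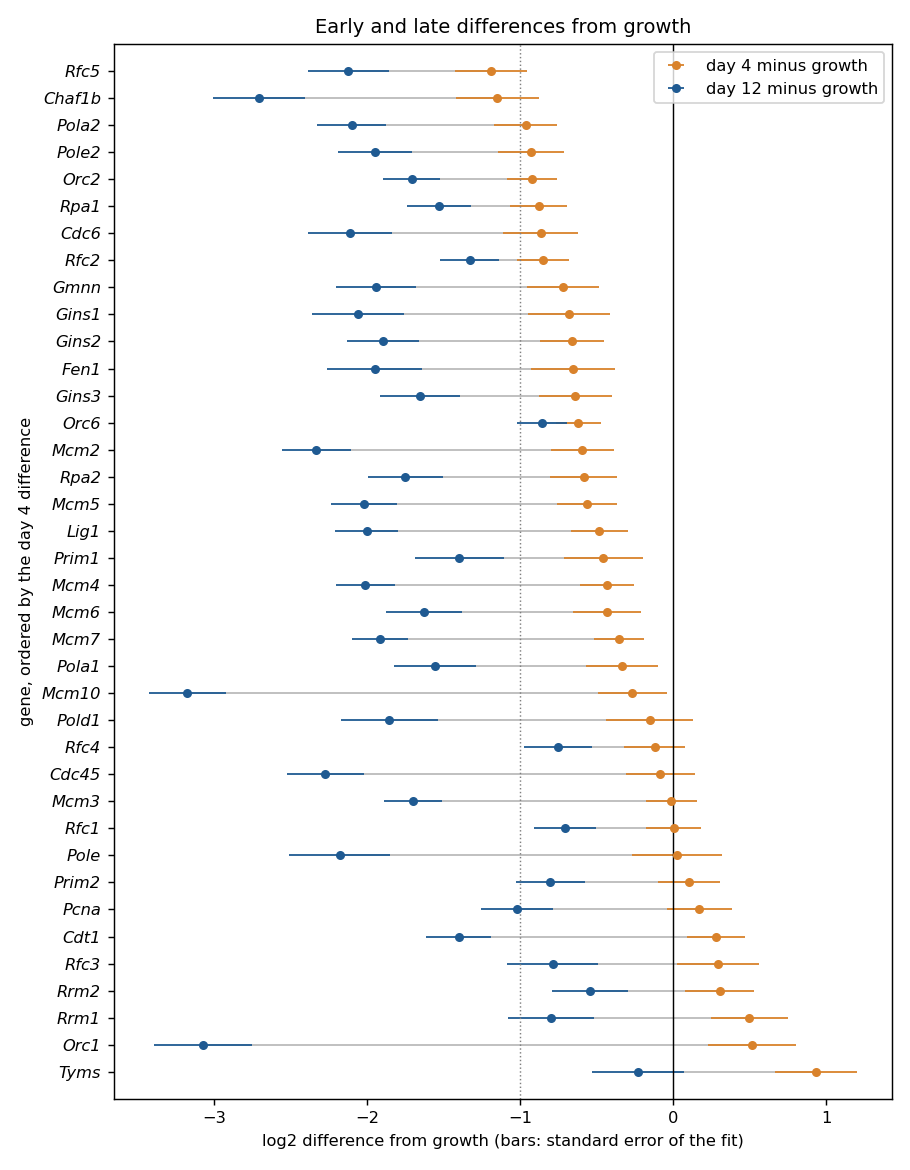
Log2 difference from growth (x axis, with bars for the standard error of the fit) on day 4 (orange) and day 12 (blue) for each of the 38 replication genes (y axis, ordered by the day 4 difference), with a dotted line at -1. Rfc5 and Chaf1b are past the line on day 4. By the probe sets used, Pole (0.03) and Mcm3 (-0.01) are at 0 on day 4 and at -2.18 and -1.70 on day 12. Both comparisons share the growth arrays.

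Several probe sets passed the filter for 26 of the 38 genes, and the 35 that were not used above were all lower on day 12 than in growth, by sign alone. The share over all probe sets was not computed. Such a probe set of Gins3, Mcm10, Mcm5, Rfc2 and Tyms each was above the cutoff on only 2 or 3 arrays. Its mean was above the cutoff in growth alone, so the filter largely fixed its direction. Sizes could differ: the other probe set of Prim2 was at -0.07 on day 12 against -0.80, and that of Pold1 was called on day 8 at -1.35 against -0.51. That of Tyms was at -1.15 on day 12 against -0.23, but its direction was largely fixed by the filter. Direction differed between probe sets on day 4 in Rfc1, for which the probe set used gave 0.00 and the others -0.21 and -0.22. It also differed in Tyms, where it cannot be read because of the filter. The day 12 differences of the 3 Rfc1 probe sets were -0.71, -0.96 and -0.40.

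Other genes of DNA replication, listed by role but with earlier results of these data known, also fell mostly on the late days. Of 51 listed, 49 were tested, and 5 were called lower than growth on day 4, 3 on day 6, 12 on day 8, 29 on day 10 and 33 on day 12. These are 10.2%, 6.12%, 24.5%, 59.2% and 67.3% of the list, under the 13.6% and 12.9% of all genes on days 4 and 6 and above the 15%, 19.5% and 19.3% after that. Their median difference on day 12 was -1.30. Chtf18, which directs a second clamp loader, fell from 8.33 ± 0.18 in growth to 4.18 ± 0.53 on day 12 (SD, n = 3 and 2), a difference of -4.15. Ticrr, a factor needed to fire origins, differed by -2.91, and Dctpp1, which removes unwanted nucleotides, by -2.81. Recql4, a helicase of replication start, was dim on days 10 and 12 and at least 3.23-fold lower. Those called higher, named here after their values were seen, were Rnaseh2c on day 6 (1.39), and Dck (1.08) and Rrm2b (1.45) on day 12. Rrm2b encodes a small subunit of ribonucleotide reductase known for use outside S phase, and Dck encodes a nucleoside salvage kinase.

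Of 28 listed regulators that gate entry into S phase, 26 were tested. On day 12, 7 were called lower (26.9%, against 19.3% of all genes) and 6 higher (23.1%, against 22.5%), shares near the background, with a median of -0.49. The higher ones included 2 pocket proteins, which bind E2F factors and hold back their targets. Rb1 went from 5.41 ± 0.67 in growth to 8.42 ± 0.38 on day 12 (SD, n = 3 and 2), a difference of 3.01. Rbl2 was dim in growth and at least 10.6-fold higher on day 12. It passed the filter only through DMSO arrays, which favoured that direction, so this is a description. The inhibitor of cyclin-dependent kinases Cdkn2c was dim in growth and on days 4 and 10. On day 12 its mean was 4.78, at least 1.72-fold higher than growth. It passed the filter largely through its day 12 arrays, which fixed the direction, so this is a description. E2f4, an E2F factor that works with pocket proteins, was dim from day 8 on and at least 4.64-fold lower on day 10.

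Genes of mitosis were also called lower in larger shares than all genes. Of 28 listed, 27 were tested, and 7 were called lower on day 4, 7 on day 6, 16 on day 8, 23 on day 10 and 23 on day 12, with 0 higher on these days. These are 25.9%, 25.9%, 59.3%, 85.2% and 85.2% of the list, against 13.6%, 12.9%, 15%, 19.5% and 19.3% of all genes. Their median difference was -0.76 on day 4 and -1.84 on day 12. Plk1, the mitotic kinase with the largest fall, differed by -3.11 on day 12, Aurka by -2.74 on day 10, and the checkpoint kinases Bub1b and Bub1 by -2.55 and -2.38 on day 12. Whether the mitotic and replication lists differ in timing was not tested.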

How the data were processed

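Expression was measured on 16 Affymetrix mouse arrays, 1 per culture. The authors' deposited values are GCRMA signals on a log2 scale: per the submitters' processing notes GCRMA was used, a method that removes background using probe sequence, equalizes the arrays' distributions and gives 1 value for each probe set. Its version is not given in the sources used here, and the log2 scale was read from the values, which ran from 0.863 to 15.9 with array medians of 3.16 to 3.27.

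Probe sets naming 1 gene in the platform annotation (34945 of 45101, controls left out) and above a log2 of 4 on at least 2 arrays were kept, and for each gene the one with the highest mean, leaving 10802 genes. All 16 arrays entered a single limma fit (version 3.58.1, R 4.3.3) with a mean for each group. It had 10 residual degrees of freedom and the eBayes step added 3.53, so the groups of 2 arrays share the spread of the others. To be called, a gene had to differ by at least 1 log2 with a p under 0.05 after Benjamini-Hochberg adjustment across every gene tested in that contrast. A group with every array under 4 is dim, and a fold against it was computed from 4. The fit was tested on simulated data in which 200 genes were changed. The 39 genes, the other gene lists and the tests were chosen with earlier results of these data known, and p-values measure the spread between these cultures.

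Genes with values on every array are the 8 with the largest called differences from growth, the brightest of each role, the called gene with the smallest span, the 3 with the smallest spans of all and those whose probe sets differ in direction. From the other lists the 4 with the largest called differences are named. Promoters came from RefSeq's table for GRCm38.p6. Alternatives changed the filter, scaling, floor, variance model, array weights, replicate block, groups fitted, probe set rule, call rule and arrays used, and the promoter window.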

Additional observations from a re-analysis of the deposited data

Results flagged for a closer look

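In 5 genes every array of at least 1 early day lay above all growth arrays and both day 12 arrays lay below them. The share of all genes with this pattern was not computed, so the count says nothing about these genes as a set. The genes were picked for this pattern, which fixes the direction of the change, so the differences between day 12 and day 4 are a description. Cdt1, above growth on days 4 and 6, differed by -1.68, and Rfc3, above growth on the same days, by -1.08. Pold1 differed by -1.70, Rrm1 by -1.30 and Rrm2 by -0.85, and their arrays lay above growth on day 6. The other probe set of Pold1 had a lower mean on day 6 than in growth (8.625 against 8.918).

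The 18S rRNA control probe sets, which no comparison of genes used, averaged 8.37 on the 2 day 12 arrays (8.04 and 8.69). They ranged from 4.91 to 5.66 over the growth arrays and reached at most 6.88 on any other array. The difference between the 3′ and 5′ probe sets of Actb averaged 0.91 in growth and 0.96 on day 12, and that of Gapdh -0.33 and -0.30.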

How the results depend on the processing

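The labels give groups the same replicate letters, but of 35 same-letter pairs of arrays only 13 had deviations from the group means correlated above 0.1 (range -0.207 to 0.324), so the letters were not taken as pairs. With the letter as a replicate block, 109 of 111 calls of single genes against growth and between days 4 and 12 and days 8 and 10 were kept. Those lost were Mcm2 on day 6 (-0.94) and Pole2 between days 12 and 4 (-0.97), and 30 genes were again lower on day 12. Under no alternative did a called difference change sign. Day 10 against day 8 gave 1 gene lower after quantile normalization again, median scaling, array weights, a fit of only the groups compared or testing against 1 log2 (limma's treat), and 8 by adjusted p alone (8.21% of all genes). Day 12 against day 10 gave 2 lower after quantile normalization and 1 after median scaling or by adjusted p alone, and day 8 against day 6 gave 3 with array weights. By adjusted p alone, 16 were lower and 1 higher on day 4 (24.8% and 23.4% of all genes), 18 lower and 3 higher on day 6 (21.8% and 21.4%), and 27 lower on day 8 (27.2%). Under treat, 0 were lower on day 4, 0 on day 6, 1 on day 8, 15 on day 10 and 9 on day 12 against day 4 (5%, 4.35%, 5.67%, 8.96% and 3.67% of all genes). The E2F words were in 2 genes when only 100 bases were searched. Leaving out each array in turn gave 2 to 4 lower and 0 to 1 higher on day 4, 4 to 7 lower and 0 to 1 higher on day 6, 11 to 26 lower on day 8, 25 to 28 on day 10 and 29 to 31 on day 12. It gave 0 to 4 lower from day 6 to 8, 1 to 4 from day 8 to 10, 0 to 1 from day 10 to 12, 21 to 29 from day 4 to 12, and 32 to 36 by the F test. The causes were not tested, except that the adjusted p alone can only add calls. Signal near background limits Orc1 on days 10 and 12 and Tyms throughout.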
